A study of Mus musculus with 6 samples.

Results

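Complexes III and IV are the last complexes of the mitochondrial electron transport chain, and 34 nuclear genes of these complexes were followed here among the 18089 genes measured. The genes were taken by name: 9 subunits of complex III, cytochrome c, 10 subunits of complex IV in their common form, 3 muscle isoforms of complex IV subunits, 3 other isoforms of complex IV and 8 assembly factors. RNA came from the ischemic gastrocnemius, a calf muscle, of male C57BL/6 mice aged 8 to 10 weeks, 7 days after hindlimb ischemia (HLI), in which the femoral artery of the left leg was ligated at both ends and the segment between was excised. The WT group held 3 wild-type littermate controls and the Gpr174-/Y group held 3 mice without Gpr174, a receptor gene on the X chromosome, from a line acquired from another laboratory. Which part of the gene is deleted is not given in the sources used here, and the tissue is not a sorted cell type. All 6 muscles were ischemic, and no library of a muscle before surgery, of the other leg or of another day was analysed here.

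Complex III takes electrons from ubiquinol and hands them to cytochrome c, a small soluble carrier, and complex IV (cytochrome c oxidase) passes them on to oxygen while protons are moved across the inner membrane. The catalytic core of complex IV is encoded by mitochondrial DNA, and the nuclear subunits counted here surround that core. Some nuclear subunits of complex IV come in pairs, with a form found in heart and skeletal muscle (Cox6a2, Cox7a1, Cox8b) and a form found in most tissues (Cox6a1, Cox7a2, Cox8a). Skeletal muscle fibres are rich in both complexes, more so in oxidative fibres, and developing muscle carries more of the common forms before the muscle forms replace them.

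Each library held between 18417077 and 19394469 estimated counts, the WT libraries at most 18695013 and the Gpr174-/Y libraries at least 19173036. Values of a group are listed in the order of its replicates 1, 2 and 3. The disrupted gene was counted 8, 2 and 5 times in WT and 1, 0 and 0 times in Gpr174-/Y, so each WT library was above each Gpr174-/Y library. Replicate 2 lay between replicates 1 and 3 for 30 of the 34 genes in WT and for 28 of 34 in Gpr174-/Y, beside 77.1% and 68.2% of the 9972 genes over 10 CPM (counts scaled to library size by edgeR). Neither the labels nor the methods give a batch, and values are therefore given per library. The p-values of edgeR set the difference between the groups against the spread between these libraries.

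All 34 genes passed the filter on low counts, and 31 differed between the genotypes in edgeR's quasi-likelihood test at a Benjamini-Hochberg adjusted p under 0.05, where 54.6% of the 14395 genes tested did. Of these, 29 were lower and 2 were higher in Gpr174-/Y muscle, against a background in which 27.6% of all genes tested were lower and 27% were higher. The 2 that rose were Cox6a1 and Cox8a, the common partners of the muscle isoforms Cox6a2 and Cox8b. The median log2 fold change (Gpr174-/Y against WT) was -0.85 over the 34 genes, with a range from -1.76 for Cox7a1 to 0.42 for Cox6a1, while the median over all genes tested was 0.00372. Past both thresholds of the study, an adjusted p under 0.05 and a fold change over 2-fold, were 8 genes, all lower (Uqcrc1, Uqcrq, Cyc1, Cycs, Cox5a, Cox6a2, Cox7a1 and Cox8b), beside 8.28% of all genes (4.84% lower and 3.45% higher). Without WT replicate 1 this number was 3 and without WT replicate 3 it was 14. At the adjusted p alone, 48.9% and 62.8% of all genes were called in those 2 fits. Their share of all genes past both thresholds is not given here, so these numbers have no background beside them. With replicates 1 and 3 of each group alone, edgeR called 0 of the 34 genes and 0 of all 14447 genes tested, and 27 of the 34 and 5026 of all genes had an unadjusted p under 0.05. By CPM, every Gpr174-/Y library was below every WT library in 29 genes and above every one in 2 genes. Over all genes tested, these shares were 32.4% and 33.1% (65.6% in either direction). In the other 3 genes (Cox6b2, Sco1 and Sco2) the groups overlapped. By FPKM, among the 29, every Gpr174-/Y library was above every WT library for Cox7a2l, and the groups overlapped for Surf1 and Bcs1l.

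**Figure D1:**
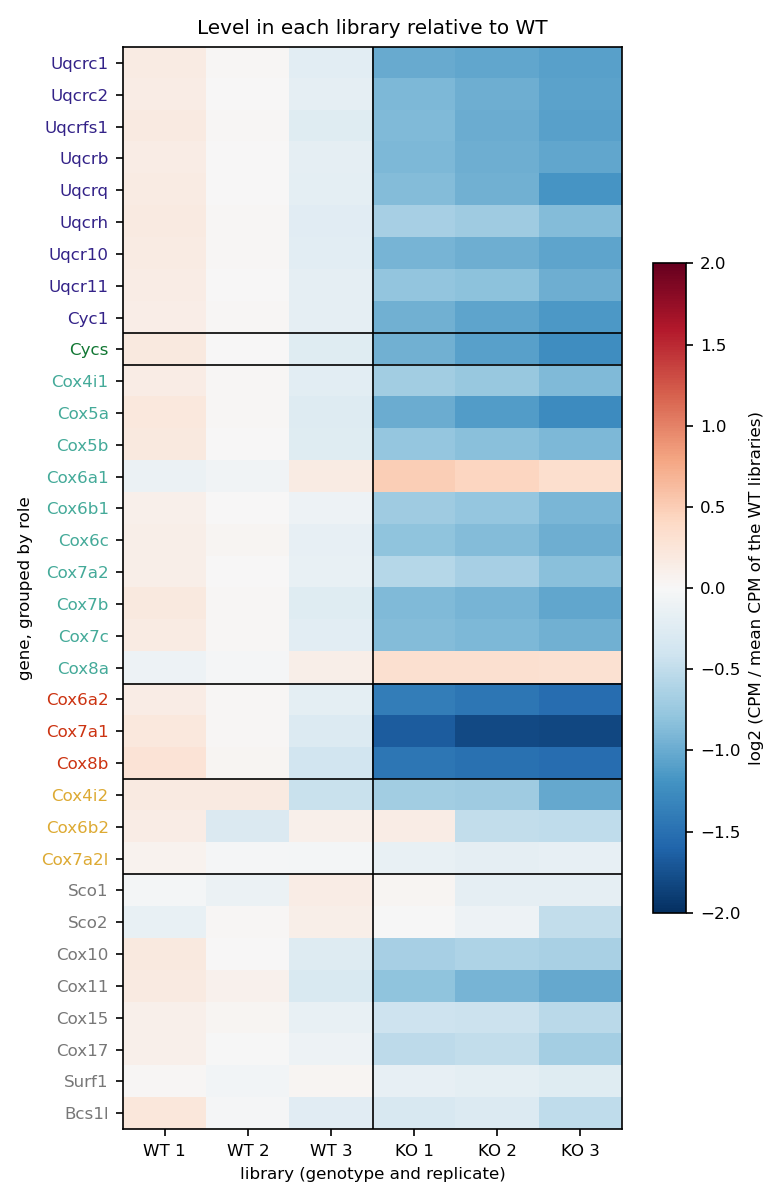
Heat map of the 34 genes (rows, ordered by role) in the 6 libraries (columns). Colour gives log2 of the library's CPM over the mean CPM of the WT libraries, red above and blue below; the muscle isoforms Cox6a2, Cox7a1 and Cox8b are the darkest blue rows in the Gpr174-/Y libraries, and Cox6a1 and Cox8a are the red ones.

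The counts of these genes together took 0.754% ± 0.0575 (SD, n = 3) of a WT library and 0.484% ± 0.0181 (SD, n = 3) of a Gpr174-/Y library. For the whole set, the widest 95% Wilson interval was 0.00409 percentage points to either side, and such intervals cover counting error only. By role, the Gpr174-/Y share was 61.3% of the WT share for complex III subunits, 72.1% for the common subunits of complex IV, 43.4% for the muscle isoforms and 87.0% for the assembly factors. The 3 other isoforms were the exception, with 0.0161% ± 0.000259 (SD, n = 3) of counts in WT and 0.0172% ± 0.000238 (SD, n = 3) in Gpr174-/Y, most of it Cox7a2l. These are shares of total counts, a scale on which the median log2 fold change of all genes tested was 0.28. As CPM, the same 3 genes summed to 170 to 186 in WT and 155 to 158 in Gpr174-/Y, and 2 of them were called lower.

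All 9 complex III subunits fell in Gpr174-/Y muscle, with log2 fold changes from -1.05 to -0.74 and a median of -0.98. Cyc1 encodes cytochrome c1, the subunit that delivers the electron to cytochrome c. It was measured at 565, 520.2 and 455 CPM in WT, against 264, 246 and 232 CPM in Gpr174-/Y. The lowest WT library thus lay well above the highest Gpr174-/Y library, and Cyc1 had the largest fall of the complex, with a log2 fold change of -1.05 (SE 0.099, edgeR adjusted p = 0.000798). Uqcrfs1, the Rieske iron-sulfur protein that takes the first electron from ubiquinol, was at 456, 405 and 341 CPM in WT and 217, 201 and 189.8 CPM in Gpr174-/Y. Its log2 fold change was -0.98 (SE 0.12).

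The core proteins Uqcrc1 and Uqcrc2, large subunits that face the matrix and carry no redox centre, had the most counts of complex III. Uqcrc1 stood at 884, 800.1 and 684 CPM in WT and 394, 382 and 373 CPM in Gpr174-/Y, a log2 fold change of -1.04. Uqcrc2 stood at 672, 611 and 538 CPM in WT and 326, 308 and 289.7 CPM in Gpr174-/Y, a log2 fold change of -0.98. Both pairs of groups were far apart, and within each group the libraries differed by less than the gap between the groups. Among the small subunits, Uqcrq, which sits next to cytochrome b, had 291, 263 and 229 CPM in WT and 142, 134 and 115 CPM in Gpr174-/Y (log2 fold change -1.003). The other small subunits were Uqcrb at -0.97, Uqcr10 at -0.99 and Uqcr11 at -0.86 on the log2 scale. Uqcrh, the acidic hinge protein at the docking face for cytochrome c, had the smallest fall of complex III, from 229.8, 205 and 172 CPM in WT to 127, 123 and 111 CPM in Gpr174-/Y (log2 fold change -0.74, SE 0.11, edgeR adjusted p = 0.00234).

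Cycs encodes somatic cytochrome c, the carrier between the complexes, which is also known as a trigger of apoptosis once it leaves the mitochondrion. It was present at 603, 532 and 446 CPM in WT and 271, 249 and 222 CPM in Gpr174-/Y. The groups did not overlap, and the log2 fold change was -1.09 (SE 0.13, edgeR adjusted p = 0.00124). Its estimated counts were not whole in every library, so the authors' counting may have divided some of its reads with other transcripts. The same holds for other members, Cyc1, Cox5a and Cox7a2 included.

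Of the 10 common subunits of complex IV, 8 fell and 2 rose, with a median log2 fold change of -0.82. The largest fall was in Cox5a, a subunit on the matrix side, with 434, 383 and 315 CPM in WT and 189, 175 and 158 CPM in Gpr174-/Y. Its log2 fold change was -1.12 (SE 0.13, edgeR adjusted p = 0.0012). The groups were separated there, although the WT libraries were spread. Cox4i1, the large regulatory subunit, fell less, from 651, 598 and 507 CPM in WT to 361, 345 and 318 CPM in Gpr174-/Y (log2 fold change -0.78). Cox5b, a zinc-binding matrix subunit, had a log2 fold change of -0.83. Cox6b1, which lies on the side facing cytochrome c, had one of -0.80, and the small membrane subunits Cox6c, Cox7b and Cox7c had -0.88, -0.95 and -0.90. With Cox6a1 and Cox8a, which rose, the 10 genes ranged from -1.12 to 0.42.

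**Figure D2:**
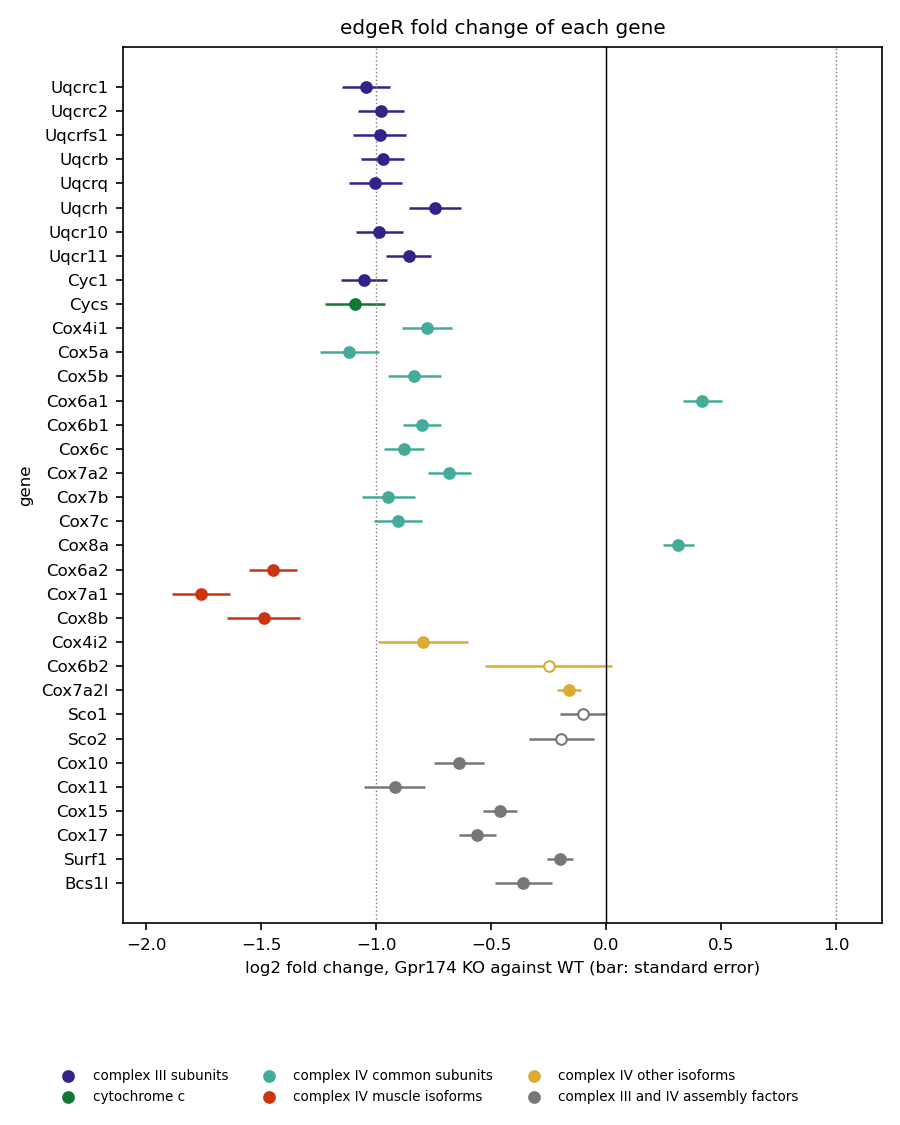
The log2 fold change of each gene from edgeR (x axis, Gpr174-/Y against WT; labelled KO), with its standard error as a bar and genes grouped by role on the y axis. Filled points passed an adjusted p under 0.05, open points did not, and dotted lines mark a 2-fold change. Most subunits sit near -1, the 3 muscle isoforms below -1.4, and Cox6a1 and Cox8a above 0.

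The muscle isoforms of complex IV fell the most of all the groups, with a median log2 fold change of -1.49 over the 3 genes. Cox6a2, the muscle form of subunit 6a, was at 905, 824 and 715 CPM in WT and at 313, 300.1 and 282 CPM in Gpr174-/Y. The highest Gpr174-/Y library was less than any WT library by a wide gap, and the log2 fold change was -1.45 (SE 0.10, edgeR adjusted p = 0.000477). Exons of Cox6a2 overlap those of Itgad on the other strand by 70 bases, and Itgad had a median of 6 counts. The common partner Cox6a1 went the other way, with 76.8, 78.98 and 93.3 CPM in WT and 117, 112 and 105 CPM in Gpr174-/Y. The Gpr174-/Y libraries were all above the WT libraries, by a small margin at WT replicate 3, and the log2 fold change was 0.42 (SE 0.087, edgeR adjusted p = 0.00685).

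Cox8b, the muscle form of subunit 8, was at 170.3, 145 and 108 CPM in WT and 51.6, 50.2 and 48.8 CPM in Gpr174-/Y. The Gpr174-/Y libraries were nearly equal while the WT libraries were spread, and the log2 fold change was -1.49 (SE 0.16, edgeR adjusted p = 0.000997). Cox8a, its common partner, was at 99.6, 105 and 117 CPM in WT and 134, 134 and 132 CPM in Gpr174-/Y. Here too the direction was upward and the groups did not overlap, with a log2 fold change of 0.31 (SE 0.068, edgeR adjusted p = 0.00828).

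Cox7a1, the muscle form of subunit 7a, had the largest fall of all 34 genes, from 115, 101 and 82.1 CPM in WT to 31.3, 28.5 and 28.3 CPM in Gpr174-/Y (log2 fold change -1.76, SE 0.13, edgeR adjusted p = 0.000477). In this pair the common form fell as well. Cox7a2 was at 131, 122 and 109 CPM in WT and 81.2, 76.1 and 67.8 CPM in Gpr174-/Y, the smallest fall among the common subunits that fell, with a log2 fold change of -0.68 (SE 0.093, edgeR adjusted p = 0.00178). The groups did not overlap for either gene.

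A ratio of muscle to common form within a library does not depend on how libraries are scaled. The count ratio of Cox6a2 to Cox6a1 was 11.8, 10.4 and 7.67 in WT and 2.69, 2.68 and 2.69 in Gpr174-/Y, a mean difference of -1.87 on the log2 scale, or 3.65-fold. For Cox8b to Cox8a it was 1.71, 1.38 and 0.921 in WT and 0.386, 0.373 and 0.371 in Gpr174-/Y, a log2 difference of -1.78, or 3.44-fold. For Cox7a1 to Cox7a2 it was 0.882, 0.834 and 0.754 in WT and 0.385, 0.374 and 0.418 in Gpr174-/Y, a log2 difference of -1.07, or 2.10-fold. In all 3 pairs every Gpr174-/Y ratio was below every WT ratio. The 2-sided exact permutation test over samples gave p = 0.1 for each pair, and 0.1 after adjustment over the 3 pairs, which is the smallest p that this test can give with 3 samples against 3, so it cannot pass 0.05 here.

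**Figure D3:**
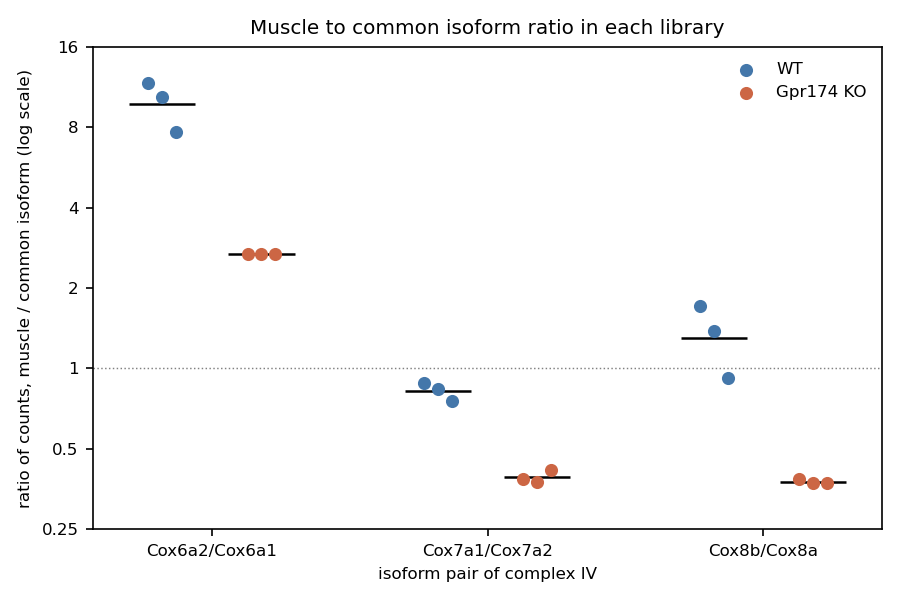
Ratio of the counts of the muscle form to those of the common form (y axis, log scale) for the 3 isoform pairs of complex IV, 1 point per library and the geometric mean as a line. The Cox6a2/Cox6a1 ratio lies between 7.67 and 11.8 in WT and between 2.68 and 2.69 in Gpr174-/Y, and the other pairs are also separated by genotype.

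Per transcript length, as FPKM, the muscle form was the larger share of each pair in WT. Cox6a2 made up 89.2% ± 2.196 (SD, n = 3) of the FPKM of its pair in WT and 69.5% ± 0.0524 (SD, n = 3) in Gpr174-/Y. Cox8b made up 66.9% ± 6.99 (SD, n = 3) in WT and 37.3% ± 0.498 (SD, n = 3) in Gpr174-/Y. Cox7a1 made up 64.7% ± 1.81 (SD, n = 3) in WT and 46.6% ± 1.48 (SD, n = 3) in Gpr174-/Y. The muscle form therefore remained the larger in the Gpr174-/Y libraries for subunit 6a, and the common form was the larger for subunits 7a and 8. The FPKM of both forms together in Gpr174-/Y was 57.0% of WT for subunit 6a, 49.7% for subunit 7a and 78.1% for subunit 8.

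The sequences upstream of these partners are shown because the forms of each pair differed in their change. RefSeq windows for the mouse build GRCm38.p6 were matched by Entrez gene for 25 of the 34 genes, and Cox6a2 had no entry. Cox7a2, the common partner of Cox7a1, had an entry that is not printed, with 14 CG dinucleotides in its 250 bases, and it fell. Where a gene had several windows the first by position was kept, while shares over other genes count every distinct window. Each line gives the 250 bases before the annotated start, 5′ to 3′ on the gene's strand, with every CG dinucleotide in capitals. The muscle forms Cox7a1 (chr7:30183921-30184170, plus strand) and Cox8b (chr7:140900447-140900696, minus strand) come first, followed by the common forms Cox6a1 (chr5:115348959-115349208, minus strand) and Cox8a (chr19:7217617-7217866, minus strand).
Cox7a1: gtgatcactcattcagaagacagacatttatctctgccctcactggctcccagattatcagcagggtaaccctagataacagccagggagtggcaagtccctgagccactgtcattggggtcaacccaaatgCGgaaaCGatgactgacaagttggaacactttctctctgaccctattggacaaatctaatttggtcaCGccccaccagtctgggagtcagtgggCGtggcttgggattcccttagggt
Cox8b: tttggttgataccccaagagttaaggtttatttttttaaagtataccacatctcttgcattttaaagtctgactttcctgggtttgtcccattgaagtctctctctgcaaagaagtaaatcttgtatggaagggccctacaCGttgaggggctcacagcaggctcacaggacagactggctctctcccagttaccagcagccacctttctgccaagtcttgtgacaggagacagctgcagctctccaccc
Cox6a1: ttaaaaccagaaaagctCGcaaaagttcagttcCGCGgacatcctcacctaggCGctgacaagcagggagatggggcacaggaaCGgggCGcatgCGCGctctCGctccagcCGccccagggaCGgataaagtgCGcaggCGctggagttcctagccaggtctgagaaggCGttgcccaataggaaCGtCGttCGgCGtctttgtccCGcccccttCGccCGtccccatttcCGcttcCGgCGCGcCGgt
Cox8a: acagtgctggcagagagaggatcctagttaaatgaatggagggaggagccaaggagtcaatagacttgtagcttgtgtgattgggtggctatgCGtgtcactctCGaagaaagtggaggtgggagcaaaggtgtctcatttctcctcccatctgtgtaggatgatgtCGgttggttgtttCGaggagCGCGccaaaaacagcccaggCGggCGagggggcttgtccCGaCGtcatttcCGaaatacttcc
As a description of these 4 windows, the printed stretch holds 4 CG dinucleotides for Cox7a1 and 1 for Cox8b, the genes lower in Gpr174-/Y, and 26 for Cox6a1 and 11 for Cox8a, the genes higher in Gpr174-/Y.

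In the full window of 300 bases, which adds 50 bases after the start, the median number of CG dinucleotides was 4.5 in the 2 muscle forms with an entry, 19.5 in the 8 common subunits of complex IV and 7.0 over all 32851 windows. The count did not follow the direction of change over the members: Cox5a had 35, Cycs 32, Uqcrfs1 31, Cox5b 27 and Cox7a2 20, all of which fell, while Cox6a1 had 32 and Cox8a 19. The letters CCGGAAG, a core of the site of the factor GABP (also called NRF2), were found on either strand in 10 of the 25 windows (40%), in 13.5% of the windows of genes in the table and in 8.86% of all windows. Among them were both common forms that rose, with Cox6a1 holding a match 16 bases before the start and Cox8a 1 starting 5 bases before it. The match was also in Uqcrh, Uqcr11, Cox6b1, Cox10, Cox15, Surf1 and Bcs1l, which fell, and in Sco1. The letters GCGCA, any base and GCGC in a row, for nuclear respiratory factor 1 (NRF1), were in 2 windows, those of Cox6a1 and Uqcrc1, or 8% against 7.5% of the windows of genes in the table. E-boxes (CANNTG), the short sites of myogenic factors, were in 18 windows (72%, against 67.0% for genes in the table), Cox7a1 and Cox8b included. Sites of MEF2, serum response factor (CArG) and the estrogen-related receptors (AAGGTCA) were found in none of the 25 windows. They were in only 2.04%, 1.42% and 3.7% of the windows of genes in the table, so few matches would be expected among 25 windows. In none of the 25 windows did matches of GABP, NRF1 and the E-box overlap each other. A match of letters is a description of the window only.

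The other isoforms moved little or were rare. Cox4i2, the form of subunit 4 known from lung and from hypoxic cells, was at 6.53, 6.55 and 4.27 CPM in WT and 3.58, 3.53 and 2.84 CPM in Gpr174-/Y. Its log2 fold change was -0.80 (SE 0.20, edgeR adjusted p = 0.0132), and without WT replicate 2 the call was lost, at -0.69. Cox7a2l, a relative of subunit 7a, was at 179, 167 and 165 CPM in WT and 154, 151 and 152 CPM in Gpr174-/Y. It passed the test with a log2 fold change of only -0.16 (SE 0.053, edgeR adjusted p = 0.0382), but with libraries scaled to total counts, where the median of all genes tested was 0.28, it was 0.11 and did not pass. Cox6b2, the testis form of subunit 6b, was near 1 CPM in both groups, with 0.809, 0.595 and 0.787 CPM in WT and 0.812, 0.518 and 0.512 CPM in Gpr174-/Y, and no difference was detectable at this depth (log2 fold change -0.25, edgeR adjusted p = 0.519; 0.02 under total counts).

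Of the 8 assembly factors, 6 fell and none rose, and their median log2 fold change of -0.41 was nearer to 0 than that of the subunits. Cox11, which delivers copper to the core of complex IV, had the largest fall of the group, from 28.2, 26.7 and 20.2 CPM in WT to 14.2, 13.1 and 12.3 CPM in Gpr174-/Y (log2 fold change -0.92, SE 0.13, edgeR adjusted p = 0.00209). Its exons overlap those of Tom1l1 on the other strand by 688 bases. Tom1l1 had a median of 205 counts, where Cox11 had 264 to 453, and without known strand use such reads cannot be told apart. Cox10 and Cox15 make heme A, the prosthetic group of complex IV. Cox10 was at 42.9, 37.7 and 31.4 CPM in WT and 23.7, 24.3 and 23.9 CPM in Gpr174-/Y, a log2 fold change of -0.64 (SE 0.11). Cox15 was at 84.7, 81.3 and 71.7 CPM in WT and 59.3, 58.96 and 54.4 CPM in Gpr174-/Y, a log2 fold change of -0.46 (SE 0.075), with Cutc and Entpd7 overlapping it on the other strand.

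Cox17, the copper carrier that serves Sco1, Sco2 and Cox11, was at 34.7, 32.1 and 29.9 CPM in WT and 22.6, 22.98 and 20.1 CPM in Gpr174-/Y (log2 fold change -0.56, SE 0.08). Its clients Sco1 and Sco2, which insert copper into the second core subunit, did not pass the test. Sco1 was at 11.6, 11.1 and 13.3 CPM in WT and 12.4, 10.6 and 10.7 CPM in Gpr174-/Y (log2 fold change -0.10, edgeR adjusted p = 0.441; 0.17 under total counts). Sco2 was at 9.02, 10.2 and 10.8 CPM in WT and 9.89, 9.28 and 7.07 CPM in Gpr174-/Y (log2 fold change -0.19, edgeR adjusted p = 0.279; 0.07 under total counts). The groups overlapped for both Sco1 and Sco2. Exons of Sco2 overlap 829 bases of Ncaph2 on the other strand and 856 bases of Tymp on the same strand. Ncaph2 had a median of 1302 counts and Tymp one of 35, where Sco2 had 145 to 207. Surf1, which acts early in the building of complex IV and overlaps Surf2 by 137 bases (other strand, median of 251 counts), was at 18.9, 17.9 and 19.2 CPM in WT and 16.6, 16.2 and 15.8 CPM in Gpr174-/Y. Its fall of -0.20 (SE 0.057, edgeR adjusted p = 0.0225) turned to 0.07 under total counts and was not past the threshold there. Bcs1l, which places the Rieske protein in complex III, was at 26.2, 21.96 and 19.1 CPM in WT and 17.9, 18.6 and 15.8 CPM in Gpr174-/Y, with a log2 fold change of -0.36 (SE 0.12, edgeR adjusted p = 0.0449). Under total counts its log2 fold change was -0.083 and was not past the threshold, which it also missed under upper-quartile normalization, at -0.34. The call of Surf1 held in 2 of the 6 fits that left out 1 library, and the calls of Bcs1l and Cox7a2l held in 1 of 6.

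On the FPKM scale, which allows levels of different genes to be set side by side, Cox6a2 was the highest of the 34 genes in WT at 1211 ± 89.5 (SD, n = 3), followed by Cox7c at 990.4 ± 90.3 and Cox4i1 at 768 ± 60.4. In Gpr174-/Y the order was Cox7c at 642 ± 8.21, Cox4i1 at 542 ± 24.6 and Cox6a2 at 537 ± 18.2, the last 2 of which differed by less than their spread. Cox8a moved from place 19 to place 8 in the order, at 197 ± 25.03 FPKM in WT and 295 ± 3.93 in Gpr174-/Y. Cox6a1 moved from place 24 to place 14, at 146 ± 22.2 FPKM in WT and 235 ± 8.23 in Gpr174-/Y. Cox7a1 dropped from place 17 to place 22 and Cox8b from place 12 to place 18. Apart from Cox17 at 74.9 FPKM in WT, the assembly factors were between 2.57 and 16.6 FPKM in WT, below every subunit other than the isoforms Cox4i2 at 7.69 and Cox6b2, the lowest of all, at 1.41.

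**Figure D4:**
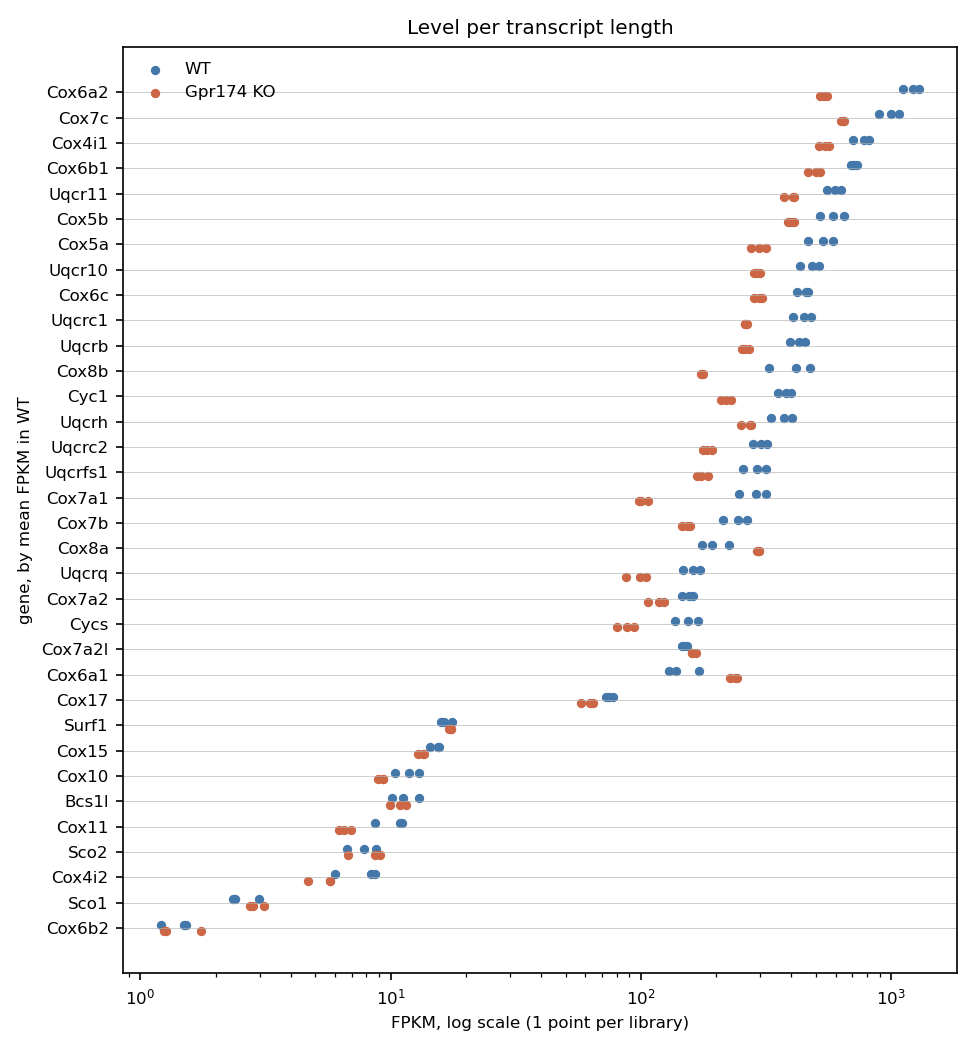
FPKM of each gene in each library (x axis, log scale), with genes ordered by their mean in WT on the y axis and 1 point per library. Cox6a2, Cox7c and Cox4i1 lead in WT, and the assembly factors other than Cox17 lie at the bottom together with Cox4i2 and Cox6b2. The Gpr174-/Y points are to the right of the WT points for Cox8a and Cox6a1 and, by less, for Cox7a2l.

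The wider set of genes around these complexes moved in the same direction. Of 27 other genes of complex III and IV tested, mostly assembly and translation factors, 26 fell and none rose, with a median log2 fold change of -0.60. The largest fall there was in Taco1, an activator of translation of the first core subunit of complex IV, at -1.04 (SE 0.11, edgeR adjusted p = 0.00106). All 36 nuclear subunits of complex I fell (median -0.92, Ndufc1 the most at -1.16). All 4 subunits of complex II fell (median -0.88, Sdhb the most at -1.10), as did all 15 nuclear subunits of the ATP synthase (median -0.88, Atp5g1 the most at -1.19). Whether complexes III and IV differed from these complexes was not tested.

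Markers of the cells in the tissue differed between the groups at the same time. All 24 markers of mature muscle fibres fell, with a median log2 fold change of -1.43 and Myh2, a fast oxidative myosin, the most at -2.80. Together they took 16.45 to 21.53% of counts in the WT libraries and 8.837 to 9.421% in the Gpr174-/Y libraries, and none of them was at 0. In bulk muscle, fewer fibres and less of this RNA per fibre cannot be told apart. Of 13 markers of regenerating fibres, 10 rose and none fell (median 1.01, Mymx, a protein of myoblast fusion, the most at 1.84), with a summed level of 6839 to 8956 CPM in WT and 8308 to 10165 CPM in Gpr174-/Y. Of 12 macrophage markers 11 rose (median 0.81, Itgam the most at 1.60), from a sum of 1623 to 2552 CPM to one of 3774 to 3852 CPM. Of 14 endothelial markers 13 fell (median -0.78, Cldn5 the most at -0.97) and Vwf rose by 0.38, and their sum was 1515 to 1712 CPM in WT and 967 to 1076 CPM in Gpr174-/Y.

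The remaining markers were mixed. Of 6 fibroblast markers 3 rose (Postn the most at 1.15) and 3 fell (Lum the most at -0.81), with a sum of 13354 to 20079 CPM in WT and 26060 to 28813 CPM in Gpr174-/Y. Of 3 neutrophil markers tested out of 6, Mmp9 rose by 2.66, Csf3r rose by 0.63 and Cxcr2 fell by 0.57. S100a8, S100a9 and Retnlg were too low to test, with at most 15 counts in a library, and their groups overlapped. The sum of the 6 went from between 24.8 and 52.6 CPM to between 113 and 116 CPM. That rise came from the tested genes and not from S100a8, S100a9 or Retnlg. Of 5 adipocyte markers, 2 rose (Adipoq the most at 0.90), Fabp4 fell by 0.82 and 2 did not pass, and the sums were 467 to 489 CPM in WT and 339 to 383 CPM in Gpr174-/Y. Brown adipocytes, which are rich in these complexes and are known to express Cox7a1 and Cox8b, were looked for too. Of their 4 markers, Ucp1 and Elovl3 were too low to test, Dio2 rose by 0.44 and Cidea fell by 0.58, and the sum was 15.7 to 17.0 CPM in WT and 21.0 to 21.3 CPM in Gpr174-/Y.

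Another scaling of the libraries moves all genes by about the same amount, so the sign of a fold change depends on it while the place of the 34 genes among all genes hardly does. Their median minus that of all genes tested was -0.85 on the log2 scale, with 32 of the 34 genes below it. With libraries scaled to the summed counts of the 24 mature fibre markers, the median of all genes was 1.32 and that of the 34 genes was 0.49, again with 32 of the 34 below all genes. In that fit 27 of the 34 genes were called higher and 1 lower, where 93.8% of all genes were called. Relative to fibre counts the median was -0.13 for the muscle isoforms, with Cox7a1 at -0.42, Cox8b at -0.13 and Cox6a2 at -0.11, of which Cox7a1 passed the test. On the same scale the common partners were at 1.72 for Cox6a1, 1.62 for Cox8a and 0.65 for Cox7a2, and complex III had a median of 0.35. With libraries scaled to total counts, 26 genes were lower and 2 higher, where 64.7% of all genes were called, and 3 passed both thresholds. The share of all genes past both thresholds under that scaling is not given here. With a score of the fibre markers as a covariate, whose values did not overlap between the groups, edgeR called 0 of the 34 genes, where 4.7% of all genes were called (679 of 14395), and 4 of the 34 had an unadjusted p under 0.05. The median of the 34 was then 0.02, and 15 of them were below the median of all genes.

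**Figure D5:**
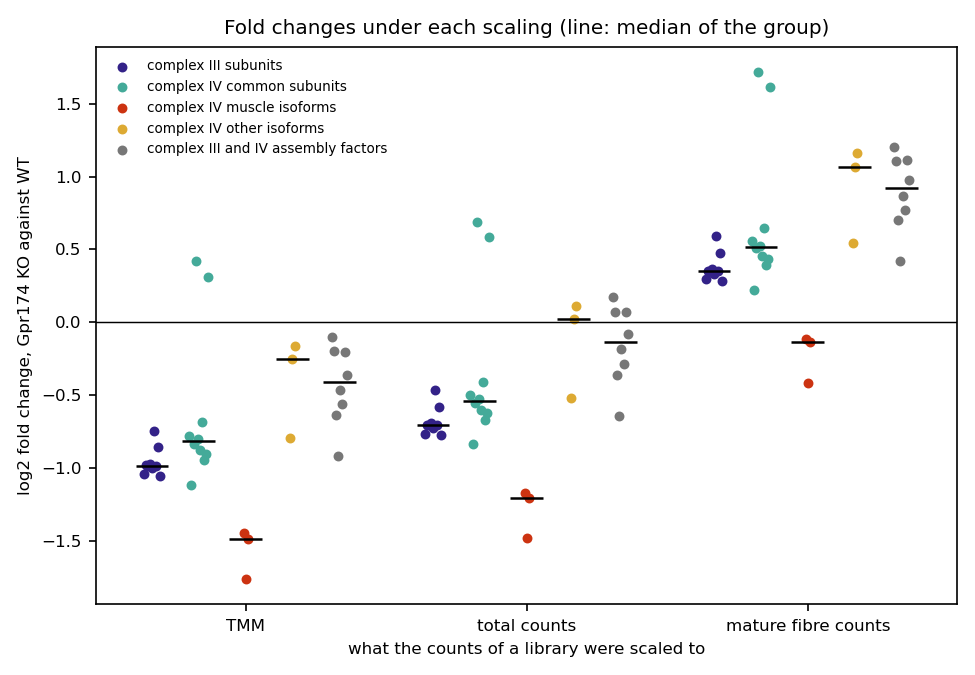
Log2 fold change of the genes (y axis) by role under 3 ways of scaling the libraries (x axis), 1 point per gene and the median of the role as a line; the single point of Cycs is not drawn. Complex III sits at a median of -0.98 under TMM, -0.71 under total counts and 0.35 relative to mature fibre counts, and the muscle isoforms stay the lowest group in each.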

How the data were processed

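RNA from ischemic gastrocnemius of 3 WT and 3 Gpr174-/Y mice was sequenced on the BGISEQ-500 platform. The authors deposited 1 table of 58843 RefSeq transcripts holding estimated counts, which need not be whole, without normalization. The deposited table also gives FPKM, scaled by transcript length and library size, and TPM for each library, as well as the authors' group means, which were not used. The submitters' processing notes name HISAT2 2.0.4, Bowtie2 2.2.5, RSEM 1.2.12 and GRCm39, without their roles. Strand use is not given in the sources used here.

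Columns were mapped to samples by name, and 0 per-sample columns were left over. Estimated counts were summed per Entrez gene and rounded, giving 18089 genes. All 6 libraries had whole counts for 23 of the 34 members. The others were Uqcrc2, Cyc1, Cycs, Cox5a, Cox7a2, Sco1, Sco2, Cox11, Cox15, Cox17 and Surf1. In GENCODE M21 on GRCm38, exons of Uqcrc2, Uqcrb, Cox5a, Cox10 and Cox17 also overlap other genes, beside those named with their values. Genes were compared with edgeR 4.0.16 in R 4.3.3 (TMM, genes of low count removed by filterByExpr, quasi-likelihood F-test with robust fitting) on all 6 libraries, with Benjamini-Hochberg adjustment over 14395 genes, since the study's DEGseq was not installed. The study's thresholds were used, 0.05 for the adjusted p and 1 for the size of the log2 fold change. The biological coefficient of variation was 0.0983. CPM are counts scaled by library size and TMM factor. Isoform ratios were compared by a 2-sided exact permutation test over 20 orderings. The code was tested on simulated data.

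The members and lists were chosen with earlier results of these data known. Values in every sample were given for the isoform pairs, Cycs and the largest rise and fall of each role, and the largest changes were named for the other lists. Values of other members were added to account for all 34. Alternatives were DESeq2 1.42.0, limma 3.58.1 (voom, and fits to log2(FPKM + 1) or log2(FPKM + 0.1), where 3 libraries had to reach an FPKM of 1), other scalings and filters, a replicate block, a fibre score, replicates 1 and 3 alone, and each library left out. Python 3.11.15, numpy 2.4.6, scipy 1.17.1, pandas 2.3.3 and matplotlib 3.10.9 were used for the rest.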

Additional observations from a re-analysis of the deposited data

How the results depend on the processing

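The counts of genes changed little under upper-quartile normalization, DESeq2 size factors, DESeq2's Wald test, limma voom, no filter on low counts or a filter of 10 counts, with 29 to 31 of the 34 genes past the adjusted p. In those fits 43.9% to 55.7% of all genes tested were called. Over 646 comparisons of a gene's fold change with its value under 1 of the 19 alternatives, 515 kept both the sign and the outcome of the test, 67 kept the sign but were no longer past the threshold, and 64 changed direction. Of those, 29 were under the fibre-count scaling, 5 under total counts and 5 and 4 under the FPKM fits, which moved the median of all genes to 1.32, 0.28, 0.24 and 0.28, and 21 were under the fibre score. Leaving out 1 library gave 27 to 31 genes past the adjusted p, with 25 to 29 lower and 2 higher in each fit. The share of all genes called in these fits ran from 37.5% without WT replicate 2 to 62.8% without WT replicate 3. Past both thresholds were 3 to 14 of the 34 genes, 3 without WT replicate 1 and 14 without WT replicate 3. The share of all genes past both thresholds is given for the main fit only. Numbers past both thresholds under the alternatives therefore have no background beside them. Replicates 1 and 3 of each group alone gave 0 genes past the adjusted p in either direction, and 0 past both thresholds, with edgeR, against 27 at an unadjusted p under 0.05, and called 0 of all 14447 genes, 5026 of which had an unadjusted p under 0.05. The same replicate numbers mark different mice, and the deviations of same-numbered libraries correlated at 0.0107, 0.0137 and 0.00317. The labels give no pairing. With 3 libraries per group, these values cannot decide whether same-numbered libraries shared an order of processing. With the replicate block 29 genes passed the adjusted p, 27 lower and 2 higher, where 47.3% of all genes were called, and 8 passed both thresholds.

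Total counts and both FPKM fits left 3 genes past both thresholds. Under total counts the log2 fold change turned to Cox6b2 0.019, Cox7a2l 0.11, Sco1 0.17, Sco2 0.074 and Surf1 0.071. On log2(FPKM + 1) it turned to Cox6b2 0.0001, Cox7a2l 0.11, Sco1 0.13, Sco2 0.062 and Surf1 0.058, and on log2(FPKM + 0.1) to Cox7a2l 0.11, Sco1 0.17, Sco2 0.069 and Surf1 0.061. Total counts also gave 0 lower brown adipocyte markers, 0 lower neutrophil markers and 6 higher biogenesis regulators. As a share of TPM the Gpr174-/Y minus WT difference was -0.595 percentage points for all members, -0.206 for complex III, -0.190 for the common complex IV subunits, -0.191 for the muscle isoforms, 0.00459 for the other isoforms and -0.00182 for the assembly factors.

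Scaled to the summed counts of the mature fibre list, 27 genes were higher and 1 was lower, where 93.8% of all genes were called, and the log2 fold change turned to Uqcrc1 0.30, Uqcrc2 0.35, Uqcrfs1 0.36, Uqcrb 0.36, Uqcrq 0.33, Uqcrh 0.59, Uqcr10 0.35, Uqcr11 0.47, Cyc1 0.28, Cycs 0.25, Cox4i1 0.56, Cox5a 0.22, Cox5b 0.51, Cox6b1 0.53, Cox6c 0.45, Cox7a2 0.65, Cox7b 0.39, Cox7c 0.44, Cox4i2 0.55, Cox6b2 1.07, Cox7a2l 1.16, Sco1 1.21, Sco2 1.11, Cox10 0.70, Cox11 0.42, Cox15 0.87, Cox17 0.77, Surf1 1.11 and Bcs1l 0.98. With the fibre score as a covariate 0 genes passed the adjusted p in either direction and 0 passed both thresholds, against 4 at an unadjusted p under 0.05 and 679 of 14395 genes called in all, and the log2 fold change turned to Uqcrfs1 0.13, Uqcrh 0.37, Uqcr10 0.017, Uqcr11 0.0084, Cycs 0.094, Cox4i1 0.20, Cox5a 0.14, Cox5b 0.32, Cox6a1 -0.24, Cox7a2 0.075, Cox7b 0.21, Cox7c 0.10, Cox8a -0.25, Cox8b 0.21, Cox4i2 0.95, Cox7a2l 0.089, Cox10 0.48, Cox11 0.41, Cox15 0.21, Cox17 0.023 and Bcs1l 0.83. That score did not overlap between the groups, so the covariate and the genotype cannot be told apart. The isoform ratios kept their sign without each library, from -2.04 to -1.73 for Cox6a2/Cox6a1, from -1.13 to -1.02 for Cox7a1/Cox7a2 and from -2.03 to -1.58 for Cox8b/Cox8a on the log2 scale, where the smallest p is 0.2. With 3 mice per group, 1 day and no uninjured muscle here, genotype cannot be told apart from the state of the muscle at sampling. Where not stated, the cause of a change was not tested.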

Other observations

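The regulators known to set the level of respiratory chain genes did not move as one. Of 16 genes tested, 9 fell, 1 rose and 6 did not pass, with a median log2 fold change of -0.38. Over all genes tested 54.6% passed, 27.6% lower and 27% higher. Perm1, a muscle regulator that acts with the PGC-1 coactivators and the estrogen-related receptors, was at 125, 107 and 75.5 CPM in WT and 30.3, 28.5 and 27.5 CPM in Gpr174-/Y. That was the largest fall of the list, at -1.83 (SE 0.18, edgeR adjusted p = 0.000846). Pprc1, a relative of PGC-1 linked to growth, was the gene that rose, from 41.4, 41.6 and 41.5 CPM in WT to 58.5, 58.9 and 56.1 CPM in Gpr174-/Y, at 0.48 (SE 0.044, edgeR adjusted p = 0.000778). Among factors whose binding letters were searched for in the promoter windows, the myogenic factors Myog and Myod1 are listed as markers of regenerating fibres. They rose by 1.42 and 0.54 on the log2 scale (edgeR adjusted p = 0.00202 and 0.00139). Those in the list of regulators were mixed. Nrf1 and Gabpa were at -0.00 (edgeR adjusted p = 0.968) and 0.04 (edgeR adjusted p = 0.48) and did not pass. The estrogen-related receptors Esrra, Esrrb and Esrrg fell (edgeR adjusted p = 0.00622, 0.00761 and 0.00167), with Esrrb at most at 1.87 CPM. Ppargc1a, Ppara and Tfam fell as well. The genes named here were chosen after their values were seen. Under total counts 6 genes of the list were higher, so how many rose depended on the scaling.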
